A study of Danio rerio with 18 samples.

Results

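In the livers of adult zebrafish, 136 of the 28404 accessions measured on the array made up a set that was higher in males than in females in both the AB and the WIK strain, with some gene families left out. An accession here is the transcript identifier that the array assigns to a probe or to several probes. An accession belonged to the set when, in the log2 values deposited by the authors, the lowest male exceeded the highest female within AB and again within WIK, with a male mean at least 1 log2 unit (2-fold) above the female mean in each strain. The rule was met by 153 accessions (0.539% of all), and 17 of them were set aside because their symbols begin with hsd17b, rbp, cyp, slc25a, slc27a, gst, ugt, sult, hb or ba1. The members were thus chosen by the difference between sexes in AB and WIK, which is given below as a description without a test. Of the 136 members, 91 have a gene symbol, 77 of them through a RefSeq accession and 14 through the gene lists of the study, and 45 are named by accession. Probes were several for 61 members and single for 75.

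The 18 fish were untreated wild-type adults, 3 males and 3 females each of AB, Tuebingen (TU) and WIK, and each array held the liver RNA of 1 fish. Fish were 12 to 18 months old per the labels, with 2 generations of housing in 1 facility, and the study's methods give a narrower age range within it. The sex of each fish is that of its label, and the study's methods do not say how it was determined. The study's discussion states that AB livers were taken in the morning and those of TU and WIK in the afternoon. A difference of AB from the others therefore cannot be told apart from time of day.

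The liver of a mature female fish responds to oestrogen by making vitellogenins, the precursors of egg yolk, and exports them into the blood in large amounts. The male liver lacks this load and shares with the female liver the tasks of a general vertebrate liver. These include making lipoproteins, clotting factors and complement for the plasma, releasing glucose, breaking down amino acids, and converting steroid and thyroid hormones. Members with roles in each of these tasks are described below.

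All values are background-corrected, quantile-normalized log2 signals of the scanner files, averaged over the probes of an accession, and a difference of 1 is 2-fold. Between 44.9% and 67.3% of spots per array were well above background, the median spot signal was 35 to 68, local background had medians of 22 to 32, and no spot was saturated. Every male array had more spots well above background than the same-numbered female array of its strain. In TU the shares were 63.3%, 58.8% and 67.3% in males and 46.3%, 49% and 63.9% in females. The median spot signal was also higher in the male, except in TU replicate 3 (61, against 63.5 in TU female 3). The part of array brightness in the differences between sexes was not tested. Of 8 hepatocyte marker genes measured, 2 (fgb and cp) are themselves members, and the summed log2 level was 19.84 to 20.62 in the 9 males and 19.12 to 19.94 in the females other than TU female 3. Summed markers of the exocrine pancreas ran from 13.16 to 13.82 in AB males, from 17.58 to 20.80 in WIK males, from 15.75 to 20.05 in TU males and from 14.78 to 18.80 in the 9 females. Ovary markers stood at 12.53 in WIK female 1 and 10.28 in WIK female 2 against 8.56 to 9.74 in all other fish. Since liver pieces were measured whole, fewer cells of a type and less RNA per cell cannot be told apart in any result below.

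The library labelled TU female 3 differed from the other TU females in genes typical of female liver. Vitellogenin vtg1 measured 17.21 and 17.52 in the other TU females and 9.74 in this one, against 8.40, 10 and 6.46 in TU males. The oestrogen receptor gene esr1, itself induced by oestrogen in fish liver, measured 10.36 and 9.82 in TU females 1 and 2 and 7.75 in TU female 3, against 6.30 to 6.42 in TU males. For esr1 TU female 3 thus lay above every male of all strains (highest 6.60 in WIK male 3). For vtg1 it lay within the range of the males (highest 10.54 in WIK male 3). The sex of TU female 3 was not tested beyond its label. The same library had the highest summed level of erythrocyte markers of all 18 (18.40, against 12.77 to 16.50 in the others) and a summed hepatocyte level in the male range (20.50). Results that involve TU females are therefore given with and without this library.

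The members were bright on these arrays. The rule favours this, since it chose on the levels of AB and WIK males and a 2-fold gap is hard to reach near background. The median log2 signal of the members over the 6 males of AB and WIK was 12.92, against 6.33 over all accessions. Of the members, 82 stood above 12 and 4 below 8. A probe was well above background on all 18 arrays for 123 of the 136 members (90.4%), against 36.6% of all accessions. The median difference of males from females over the members was 1.75 in AB and 1.42 in WIK, and in the deposited table it was larger in AB for 102 members and larger in WIK for 32. Scaling each array to its median signal, without quantile normalization, gave a WIK median of 2.17. The rule was met in the scanner-derived values by 111 of the 136 members. Just inside the rule's 2-fold limit were DQ402073, ENSDART00000105634 and ENSDART00000056844, whose smaller deposited difference was 1.003, 1.017 and 1.017, and just outside it were gch1, BC135043 and ddc with 0.997, 0.993 and 0.987.

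TU took no part in choosing the members. In TU females 1 and 2 most members were nearer to the female mean of AB and WIK than to the male mean. In each TU male, and in the library labelled TU female 3, most were nearer to the male mean. For TU male 3 this depended on the scaling, and for TU male 1 the size of the majority did. Each fish was placed, for each member, by whether its signal lay nearer to the mean of the 6 AB and WIK males or to the mean of the 6 AB and WIK females. TU male 1 lay nearer to the male mean for 89 of 136 members, TU male 2 for 114 and TU male 3 for 85. With the processed signal scaled to each array's 75th percentile these counts were 69 (50.7%), 113 (83.1%) and 63 (46.3%). Scaling to the array median gave 114, 128 and 125 in the TU males and 127 in TU female 3. The deposited values gave 101, 112 and 91 in the TU males and 100 in TU female 3. In the quantile-normalized values TU female 1 lay nearer to the male mean for 21 members and TU female 2 for 20, whereas the library labelled TU female 3 lay nearer to the male mean for 96 of its 135 measured members. The signal of TU female 3 exceeded that of both other TU females for 116 members (85.3%, against 34.8% of all accessions), reached that of the lowest TU male for 121 (89.0%, against 80.9%) and exceeded that of the highest TU male for 41 (30.1%, against 24.5%). Among accessions well above background on all arrays these 3 shares were 42.9%, 83.0% and 26.6%. On a scale with the female mean at 0 and the male mean at 1, the medians were 0.74, 1.06 and 0.60 in the TU males, 0.03 and 0.06 in TU females 1 and 2, and 0.87 in TU female 3. TU males 1, 2 and 3 did not exceed the highest AB or WIK female for 40, 21 and 44 members. Neither these counts nor those of members nearer to a mean were taken over all accessions. The AB and WIK fish, which set the scale, had medians of 0.83 to 1.16 in males and from -0.13 to 0.14 in females. Over the 171 accessions that met the mirrored rule, higher in females of both AB and WIK, TU female 3 lay nearer to the male mean for 151, against 54 and 41 in TU females 1 and 2.

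**Figure D1:**
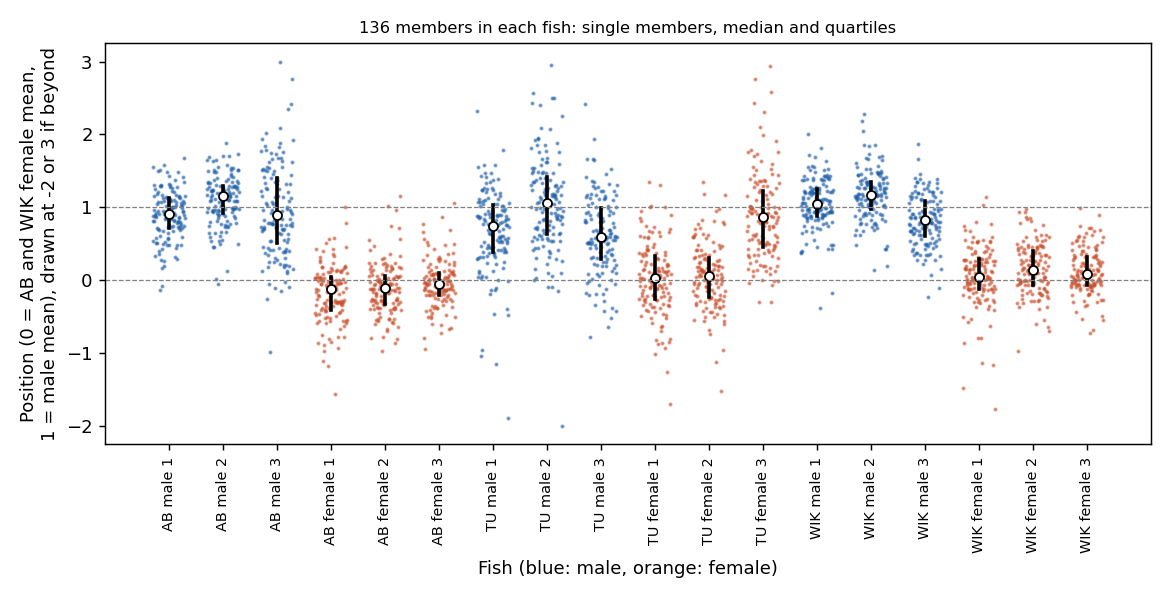
Position of the 136 members in each of the 18 fish, where 0 on the vertical axis is the mean of the AB and WIK females and 1 that of the AB and WIK males; dots are members, open circles medians and black bars quartiles. The medians of TU female 1 and TU female 2 lie at 0.03 and 0.06, that of TU female 3 lies at 0.87, and those of the TU males lie between 0.60 and 1.06.

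The 3 TU males were not alike either. TU male 2 was the highest of them for 88 members (64.7%, against 42.6% of all accessions) and exceeded the mean of the other males by at least 1 log2 unit for 46 members, while it was lower by that much for 9. It was the lowest TU male for 26 members (19.1%, against 30.4% of all accessions). Among accessions well above background on all arrays, TU male 2 was the highest TU male for 48.4% and the lowest for 26.3%. It lay above the highest AB or WIK male for 31 members, TU male 1 for 9 and TU male 3 for 6. These counts, and those of a difference of 1 log2 unit, were not taken over all accessions. They therefore do not show a trait particular to the members. TU male 2 shared a slide and scan with TU female 2, TU male 1 with TU female 1, and TU male 3 with the library labelled TU female 3. Within these pairs the median of male minus female over the members was 1.13, 1.46 and -0.29 for replicates 1, 2 and 3, against -0.02, 0.0 and -0.02 over all accessions. The male was higher for 117, 132 and 25 members, counts not taken over all accessions.

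**Figure D2:**
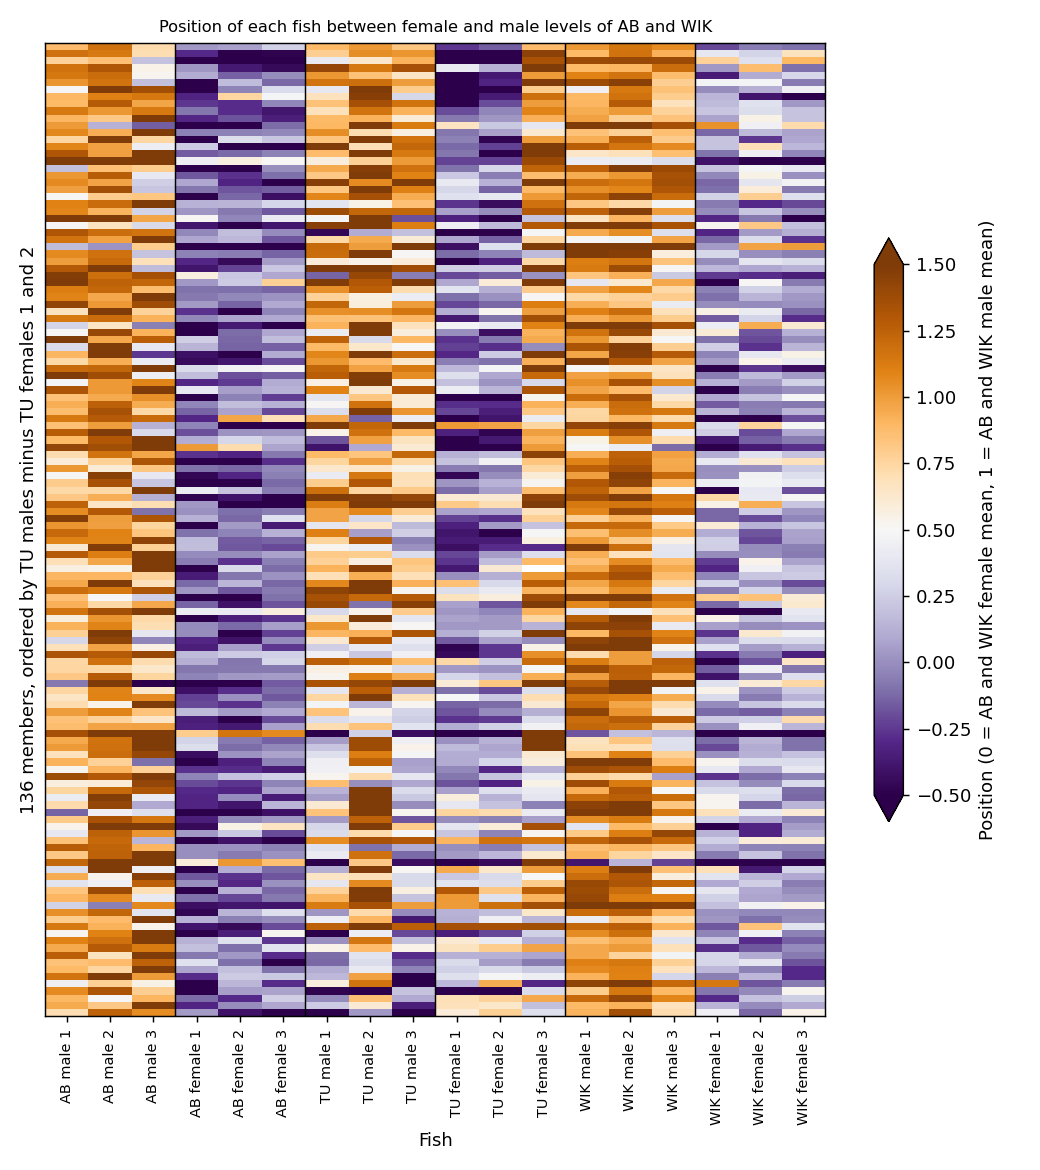
Position of every member (rows, ordered by TU males minus TU females 1 and 2) in every fish (columns), coloured from the AB and WIK female mean (0, purple) to the male mean (1, orange), with the scale ending at -0.5 and 1.5. The column of TU female 3 resembles those of the TU males over most rows, and in the lowest rows the TU males are not above TU females 1 and 2.

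Between the sexes within TU, the fit over all accessions (limma, Benjamini-Hochberg adjusted p at most 0.05 and at least 2-fold) called 0 of 136 members and 0 of 28404 accessions (0.0%), and the smallest adjusted p was 0.574. At an unadjusted p under 0.05 there were 15 members and 1182 accessions. The TU male mean was above the female mean for 120 members (88.2%, against 45.3% of all accessions and 44.7% of the 10393 accessions well above background on all arrays), with a median difference of 0.81 over the members and -0.01 over all accessions. All 3 TU males exceeded every measured TU female for 13 members (9.56%), against 3.7% of all accessions and 3.96% of those well above background on all arrays. Among the 13 was ENSDART00000056844, which had no value in TU female 3 and was compared with TU females 1 and 2 only. With the library labelled TU female 3 left out, the same limma test called 9 members, all higher in males, and 173 accessions (0.609%), 41 of them higher in males (0.144%). All TU males then exceeded both TU females for 101 members (74.3%, against 15.0% of all accessions and 20.3% of those well above background on all arrays), and the median difference was 1.23. With a mean difference of at least 2-fold as well, 83 members (61.0%) had males above TU females 1 and 2. The share was 2.3% of all accessions and 4.92% of those well above background on all arrays. For 9 members (6.62%), again with ENSDART00000056844 among them, the males were above every measured TU female by this limit. That share was 0.482% of all accessions and 0.924% of those well above background on all arrays. TU female 3 was left out for levels that resemble males, which favours higher counts of members called or above the other TU females. Exceeding fewer females is also easier, in the members and over all accessions. A fit of all 18 arrays with TU female 3 kept called 0 members and 13 accessions (0.0458%). Leaving out any other single TU fish called 0 members and 0 to 10 of all accessions.

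The 9 members called without TU female 3 were zgc:64106, apobb.1, cat, nqo1, ldhbb, pck2, spag6 and the pair of a2m2f accessions. For spag6 only 1 of 3 TU female arrays was well above background. TU females 1 and 2, kept in that fit, measured 6.11 and 6.07. These values lay within the range of the AB females (5.97 to 6.18), none of which was well above background. The spag6 difference is thus one of measured signals near background. The largest difference was that of zgc:64106, to which no role is given here, and which also led the set in WIK. In AB its log2 signal was 11.76, 13.02 and 11.12 in males and 8.20, 8.33 and 9.20 in females, and in WIK it was 12.35, 12.93 and 12.52 and 7.17, 7.79 and 7.64. TU males measured 11.80, 12.32 and 11.55 and TU females 6.98, 7.42 and 11.77. TU females 1 and 2 were the lowest and the third lowest of the 18 fish, and TU female 3 stood among the males. The TU difference was 3.17 with all 3 females and 4.70 without TU female 3 (standard error 0.28, adjusted p = 0.027 in limma).

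Lactate dehydrogenase gene ldhbb, whose enzyme interconverts lactate and pyruvate, measured 14.60, 14.64 and 14.28 in TU males and 11.1, 11.71 and 15.32 in TU females. TU female 3 was the highest of all 18 fish, and without it the difference was 3.11 (standard error 0.23, adjusted p = 0.0322 in limma). In AB the values were 14.35, 14.60 and 12.70 in males and 10.52, 12.67 and 12.07 in females, and in WIK 15.03, 15.18 and 13.87 and 13.25, 13.26 and 12.19. The AB groups differed by 2.13 and the WIK groups by 1.79, and AB male 3 stood just above AB female 2. The gluconeogenic enzyme gene pck2, which makes phosphoenolpyruvate in mitochondria, was 12.29, 12.26 and 12.35 in TU males and 10.49, 10.89 and 13.02 in TU females, a difference of 1.61 without TU female 3 (adjusted p = 0.0363), which again was the highest of the 18 fish.

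The pair of accessions named a2m2f, a gene of the macroglobulin family of plasma protease inhibitors, moved together. ENSDART00000155787 measured 12.56, 13.09 and 13.03 in TU males and 9.29, 8.78 and 13.88 in TU females, and a2m2f ENSDART00000061098 measured 11.89, 12.28 and 12.78 and 8.92, 8.47 and 13.51. Their TU differences were 2.25 and 2.02 with all females and 3.86 and 3.62 without TU female 3, which was the highest TU fish for both. Both accessions carry the same symbol and may not be independent measures. In WIK the gap was smaller, with 12.76, 13.31 and 12.84 in males and 11.79, 11.56 and 12.33 in females for the first accession, and AB stood at 13.33, 13.26 and 12.40 and 10.41, 9.85 and 10.04.

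A total of 5 members carry or transfer lipids. The gene apoa1a, for the main protein of high-density lipoprotein, measured 15.46, 15.83 and 13.53 in AB males and 13.10, 10.89 and 11.40 in AB females, and 16.95, 17.08 and 16.21 in WIK males and 14.04, 15.20 and 14.48 in WIK females. In TU the sexes did not overlap, with 17.93, 16.46 and 17.26 in males and 15.87, 15.77 and 15.17 in females, and here TU female 3 was the lowest TU fish. The TU difference of 1.61 was 1.39 without that library.

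The very-low-density lipoprotein gene apobb.1 showed the other pattern. Its TU males measured 17.44, 17.19 and 17.20 and its TU females 15.37, 15.25 and 17.31, so that TU female 3 sat among the males. Without it the difference was 1.97 (standard error 0.11, adjusted p = 0.0255 in limma). Apolipoprotein E gene apoeb had TU female 3 just below the lowest TU male, with 14.20, 14.21 and 14.43 in TU males and 12.18, 13.07 and 14.08 in TU females, against 13.38, 15.36 and 13.58 and 11.32, 10.74 and 11.83 in AB and 14.33, 14.53 and 13.41 and 13.11, 12.84 and 11.63 in WIK.

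The gene sec14l7, of the SEC14-like family of lipid-binding proteins, measured 12.52, 13.15 and 12.45 in TU males and 11.01, 11.74 and 12.72 in TU females, 12.06, 12.59 and 14.07 and 8.32, 8.67 and 9.68 in AB, and 13.45, 13.94 and 13.06 and 11.57, 12.14 and 12.32 in WIK. Its AB females were far below all other fish. In contrast cetp, which moves cholesteryl esters between lipoproteins, had no male excess in TU. Its signal was 12.14, 13.66 and 10.89 in TU males and 12.48, 12.74 and 12.65 in TU females, a difference of -0.39, while AB stood at 13.99, 14.69 and 13.69 and 11.31, 12.28 and 12.26 and WIK at 13.53, 13.87 and 12.36 and 11.75, 12.14 and 11.30.

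A total of 8 members make or handle glucose and pyruvate, and all 8 had a positive TU difference, up to 1.80 with all females and up to 3.11 without TU female 3. Their median position was 0.87, 1.18 and 0.89 in the TU males, -0.11 and 0.08 in TU females 1 and 2, and 1.17 in TU female 3. The gene g6pc1a.1 encodes the phosphatase that releases free glucose, the last step of gluconeogenesis. It measured 13.12, 13.04 and 12.49 in AB males against 9.32, 10.87 and 9.94 in AB females, 13.56, 13.54 and 12.61 against 12.13, 11.09 and 11.26 in WIK and 11.64, 12.25 and 11.15 against 10, 10.87 and 11.22 in TU, where TU female 3 passed the lowest male. Pyruvate carboxylase gene pcxb, which feeds gluconeogenesis and the citric acid cycle, was 9.96, 10.20 and 9.40 and 7.21, 7.18 and 7.12 in AB, 9.65, 9.89 and 9.09 and 7.33, 8.04 and 7.68 in WIK, and 9.79, 10.30 and 9.05 and 8.28, 7.70 and 9.25 in TU.

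The fructose bisphosphatase gene fbp1b measured 15.25, 15.98 and 15.65 in AB males and 13.61, 13.53 and 13.93 in AB females, 15.61, 16.12 and 15.68 and 14.24, 14.64 and 14.39 in WIK, and 15.53, 15.44 and 16.08 and 14.28, 14.36 and 16.44 in TU. TU female 3 was the highest of the 18 fish for this gene. The group also held mpc2b and gpd1b, which encode a mitochondrial pyruvate carrier subunit and a glycerol phosphate dehydrogenase, with TU differences of 0.50 and 0.87. Outside this group, inositol oxygenase gene miox, which opens the ring of inositol, had 11.29, 11.51 and 12.50 and 9.29, 9.29 and 9.60 in AB, 10.73, 10.52 and 10 and 8.85, 8.39 and 8.57 in WIK, and 9.78, 10.15 and 10.80 and 8.44, 8.09 and 11.45 in TU.

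Enzymes of amino acids and of one-carbon units made up 12 members. Their TU differences were smaller, from -0.24 to 0.90, with a median of 0.48 that was 1.0 without TU female 3, and TU female 3 reached or passed the lowest TU male for all 12, as it did for 80.9% of all accessions. Homogentisate dioxygenase gene hgd, of tyrosine breakdown, measured 15.64, 16.52 and 16.27 in TU males and 15.28, 15.14 and 16.25 in TU females, against 16.07, 16.77 and 15.98 and 14.80, 14.90 and 14.93 in AB and 16.33, 16.73 and 16.21 and 14.27, 14.84 and 15.38 in WIK. Cytosolic aspartate aminotransferase gene got1 measured 11.14, 10.11 and 11.55 and 9.73, 9.12 and 11.61 in TU, 11.59, 10.96 and 12.08 and 9.66, 8.93 and 9.09 in AB, and 10.87, 10.66 and 9.40 and 7.66, 8.68 and 8.81 in WIK. In these genes TU females 1 and 2 were low and TU female 3 was at the male level.

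Alanine aminotransferase gene gpt measured 9.29, 9.69 and 9.11 in AB males and 7.85, 8.41 and 7.96 in AB females, 10.47, 10.73 and 9.09 and 8.82, 8.39 and 8.50 in WIK, and 8.68, 8.90 and 8.81 and 7.66, 7.96 and 9.10 in TU. For agxtb, an aminotransferase that clears glyoxylate, the TU sexes overlapped. It measured 12.06, 12.74 and 11.75 in TU males and 12.41, 12.52 and 12.34 in TU females, while AB had 13.80, 13.50 and 15.24 and 12.01, 12.26 and 11.61 and WIK 14.21, 14.30 and 13.33 and 12.18, 11.72 and 11.16. The paralog agxta and tdh, whose threonine dehydrogenase breaks down threonine, likewise had TU differences of -0.18 and -0.14. The remaining members were glud1b, gldc, shmt1, mat1a, ftcd and etnppl, with TU differences of 0.35 to 0.90.

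Among plasma proteins of complement and coagulation, 9 were members. Fibrinogen chain genes fga and fgb lie 2 genes apart in the RefSeq table. In TU males fga measured 15.07, 16.73 and 16.28 and in TU females 14.50, 14.80 and 16.63, against 16.59, 17.18 and 17.47 and 15.49, 15.75 and 15.58 in AB and 16.12, 16.82 and 16.34 and 14.80, 15.13 and 15.24 in WIK. For fgb the values were 16.31, 17.24 and 16.43 and 15.19, 15.17 and 16.88 in TU, 16.91, 17.36 and 16.92 and 15.54, 15.84 and 15.76 in AB, and 16.91, 17.28 and 16.62 and 15.36, 15.50 and 15.48 in WIK. Both chains showed TU females 1 and 2 low and TU female 3 within the male range.

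Complement factor B gene cfb, a protease of the alternative pathway, measured 15.30, 17.43 and 15.48 in TU males and 14.74, 14.20 and 15.92 in TU females, 15.38, 16.54 and 15.92 and 14.06, 14.59 and 14.86 in AB, and 16.24, 16.54 and 15.53 and 15.50, 14.51 and 14.90 in WIK. Complement component gene c3a.1 measured 15, 16.71 and 14.82 and 14.73, 14.03 and 15.25 in TU, 14.86, 15.54 and 14.51 and 13.50, 13.84 and 13.48 in AB, and 14.87, 15.09 and 14.61 and 14.01, 13.67 and 13.40 in WIK. In both genes TU male 2 was the highest of the 18 fish, and the group as a whole had median positions of 0.52, 1.59 and 0.56 in TU males 1, 2 and 3. Genes c8a, c8g, c3a.6 and serpinc1, the last encoding antithrombin, had TU differences of 0.78, 1.39, 0.18 and 0.53.

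The gene serpina10b, of the serpin family of protease inhibitors, ran the other way in TU. AB males measured 14.86, 15.93 and 15.56 and AB females 13.51, 12.63 and 12.41, and WIK males 15.26, 16.18 and 14.87 and WIK females 14.35, 13.17 and 14.52. All 3 TU males, at 11.50, 13.50 and 11.88, lay below all 3 TU females, at 14.62, 14.99 and 14.13, a difference of -2.29 (adjusted p = 0.913 in limma) that was -2.51 without TU female 3. It was the 1 member of 136 (0.735%) with all TU males below all TU females, against 4.76% of all accessions.

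A further 15 members are secreted proteins outside those cascades, and for 14 of them all TU males exceeded TU females 1 and 2, an order found in 15.0% of all accessions and 74.3% of all members. They include serpina7, a serpin that in mammals carries thyroxine, ceruloplasmin gene cp, transcobalamin gene tcn2, the chitinase genes chia.5 and chia.6 and the neighbouring genes leg1.1 and leg1.2. Their TU differences ran from 0.12 for fn1b, a fibronectin, to 2.25 for a2m2f. Ribonuclease-like gene rnasel2 measured 17.61, 18.26 and 17.02 in TU males and 15.92, 15.44 and 17.32 in TU females, 15.98, 16.27 and 15.68 and 14.54, 13.86 and 14.53 in AB, and 17.64, 18.04 and 17.39 and 16.05, 16.52 and 15.49 in WIK.

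**Figure D3:**
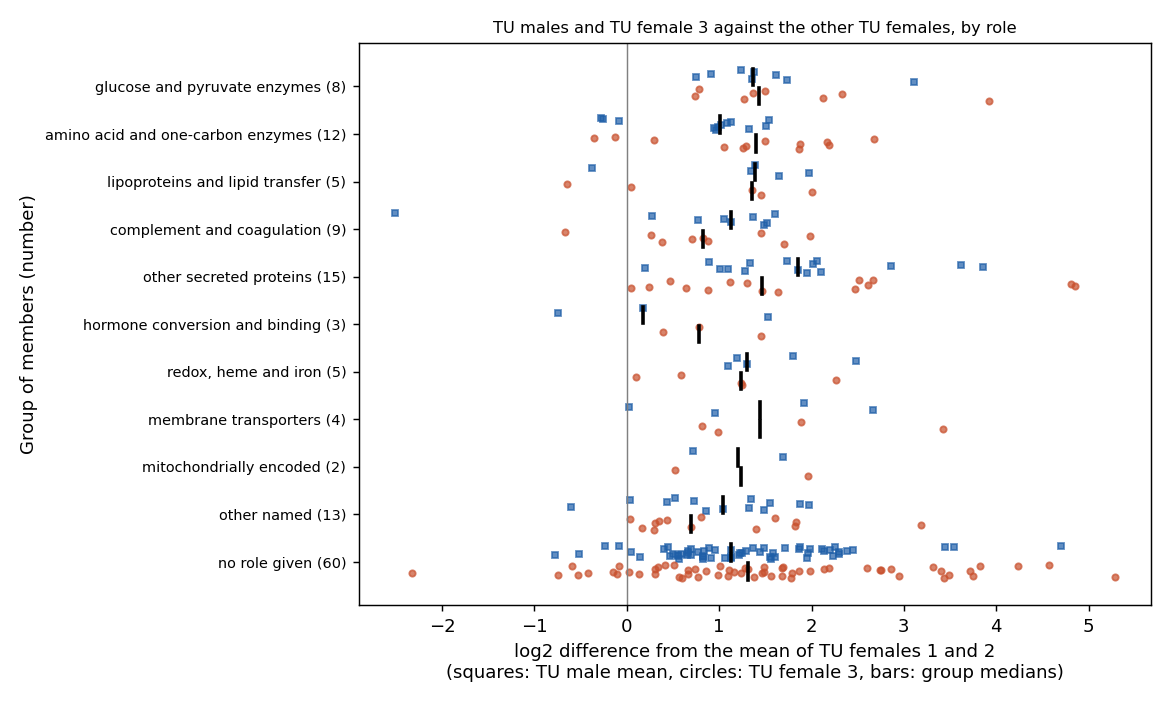
Difference of the TU male mean (squares) and of TU female 3 (circles) from the mean of TU females 1 and 2 on the log2 scale, for the members of each role group, with bars at the group medians. The male medians are 1.37 for glucose and pyruvate enzymes, 1.0 for amino acid enzymes, 1.85 for other secreted proteins and 0.18 for the 3 hormone genes.

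A total of 5 members serve redox balance, heme and iron, and for all 5 the TU males exceeded TU females 1 and 2 (15.0% of all accessions), hmox1b by a small margin. Catalase gene cat, which destroys hydrogen peroxide, was 14.55, 14.43 and 14.35 in TU males and 13.14, 13.15 and 14.39 in TU females, with TU female 3 inside the male range and a difference of 1.30 without it (standard error 0.09, adjusted p = 0.0279 in limma). AB fish measured 13.46, 13.64 and 12.42 and 11.53, 11.65 and 11.05, and WIK fish 14.28, 14.63 and 13.96 and 13.34, 12.86 and 13.01. Quinone reductase gene nqo1 measured 11.99, 11.78 and 11.90 and 10.87, 10.72 and 12.04 in TU, a difference of 1.1 without TU female 3 (adjusted p = 0.0397), 11.18, 10.59 and 10.18 and 7.80, 8.14 and 9.60 in AB, and 12.35, 12.54 and 11.72 and 11.08, 11.18 and 10.75 in WIK. Glutathione peroxidase gene gpx4a, which reduces lipid peroxides, measured 17.18, 18.02 and 17.71 and 14.90, 15.40 and 17.42 in TU, 17.24, 17.91 and 17.37 and 15.30, 15.26 and 15.69 in AB, and 17.26, 17.91 and 16.88 and 16.02, 16.34 and 15.80 in WIK.

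Heme oxygenase gene hmox1b, which breaks heme down to biliverdin, iron and carbon monoxide, was high in a single TU fish. TU males measured 7.58, 12.33 and 7.80 and TU females 7.34, 7.52 and 8.02, so that TU male 2 exceeded the mean of the other TU males by 4.64 while those 2 were at the female level. In AB the values were 12.59, 11.66 and 12.17 in males and 9.74, 8.67 and 8.27 in females, and in WIK 10.57, 10.85 and 8.70 and 7.23, 7.11 and 6.91. The transferrin receptor gene tfr1b, which imports iron, had a TU difference of 1.16 with no overlap of the sexes.

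The 3 hormone-related members differed from one another in TU. The gene hsd11b2 encodes the enzyme that inactivates cortisol and that in fish also takes part in making the main androgen. It measured 9.39, 8.45 and 11.80 in AB males against 7.34, 7.46 and 7.45 in AB females and 13.26, 13.60 and 12.95 against 9.16, 9.97 and 10.19 in WIK. TU males, at 11.96, 12.58 and 11.57, and TU females, at 11.59, 12.11 and 12.63, overlapped, with a difference of -0.08 that was 0.18 without TU female 3. All 6 TU fish lay above every female of AB and WIK.

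Deiodinase gene dio2, which activates thyroxine, measured 11.86, 11.15 and 11.87 and 10.06, 9.73 and 10.72 in AB and 12.42, 12.78 and 12.19 and 9.74, 10.62 and 10.70 in WIK. In TU the females, at 11.51, 11.63 and 11.96, were above TU males 1 and 3 and around TU male 2, the males being at 10.23, 11.81 and 10.44. The gene igfbp2a, which encodes a binding protein of insulin-like growth factors, had TU males above TU females 1 and 2, with 13.62, 13.93 and 13.32 in TU males and 12.28, 11.90 and 13.54 in TU females, 13.97, 13.78 and 12.42 and 12.04, 11.50 and 11.56 in AB, and 13.20, 13.26 and 12.77 and 11.70, 12.03 and 11.84 in WIK.

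Among membrane transporters, citrate carrier gene slc13a5a and the efflux pump gene abcc4 had TU differences of 1.53 and 1.29, and 2.66 and 1.92 without TU female 3. The amino acid transporter gene slc38a2 had -0.25 and 0.02. The mitochondrially encoded NADH dehydrogenase subunit gene ND2 had 1.04 and 1.69. Of the 60 members with no role given, all TU males exceeded TU females 1 and 2 for 41 (15.0% of all accessions did so), and TU female 3 reached the lowest TU male for 55 (80.9% of all accessions did so).

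**Figure D4:**
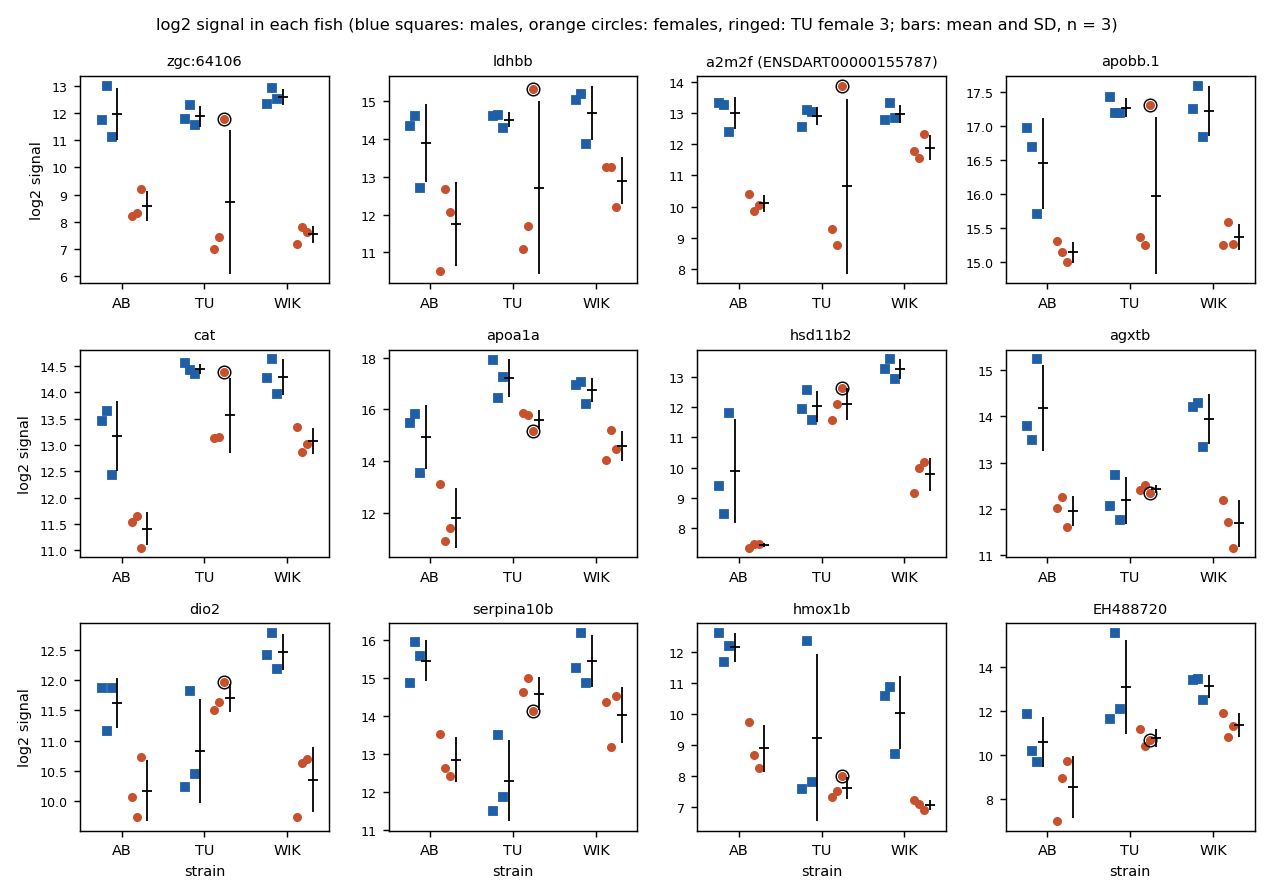
log2 signal of 12 members in each fish (vertical axes, differing between panels) by strain, with males as squares, females as circles, TU female 3 ringed, and mean and SD (n = 3) beside each group. The upper row and cat show TU female 3 at or above the male level (zgc:64106 at 11.77). In contrast hsd11b2, agxtb and dio2 show no male excess in TU, and in serpina10b the TU males lie below the TU females.

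Several of the largest differences belonged to genes with no role given here or with a name from another tissue. The gene grik1a, named for a kainate receptor subunit, measured 10.70, 10.57 and 9.37 in AB males against 6.19, 6.22 and 6.04 in AB females. No AB female array was well above background for grik1a, so AB males were at least 16.7-fold higher, a bound set on each female array against the higher of grik1a's own signal and the lowest signal that was well above background. WIK fish measured 9.21, 9.37 and 9.11 and 6.58, 6.05 and 6.03, and TU fish 7.43, 5.85 and 6.56 and 6.20, 5.98 and 6.90, with the TU sexes overlapping. In TU only 2 of 3 male arrays and 1 of 3 female arrays were well above background for grik1a, so this overlap lies near background. Probes for slc38a3a and spag6 in AB females and for ache in WIK females were likewise not well above background, and the males were at least 3.16-fold, 3.42-fold and 2.83-fold higher.

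For zgc:77439 the values were 12.98, 13.49 and 10.85 and 9.08, 7.71 and 7.44 in AB, 12.03, 12.09 and 13.09 and 9.10, 11.99 and 8.64 in WIK, and 13.85, 12.92 and 13.60 and 10.39, 9.44 and 14.15 in TU. WIK female 2 of zgc:77439 stood close to the WIK males, and TU female 3 was the highest of all 18 fish. For si:ch1073-464p5.2 the values were 15.46, 16.23 and 16.29 and 11.80, 13.75 and 12.97 in AB, 17.38, 17.95 and 17.30 and 14.82, 16.19 and 15.01 in WIK, and 16.98, 17.70 and 16.62 and 15.05, 15.20 and 16.80 in TU. The members zgc:153921 and zgc:172051 lie 1 and 3 genes from it in the RefSeq table. The shared level of TU female 3 with the males recurred in si:dkey-71h2.2, with 10.71, 10.81 and 9.88 in TU males and 7.95, 8.23 and 10.84 in TU females, 10.76, 10.51 and 13 and 7.30, 7.63 and 7.17 in AB, and 10.99, 10.42 and 10.58 and 8.37, 9.74 and 8.75 in WIK.

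For si:dkey-285b23.4 the values were 10.24, 9.23 and 8.81 and 6.91, 7.33 and 8.98 in TU, 10.32, 9.89 and 11.58 and 7.01, 7.01 and 7.10 in AB, and 9.65, 9.44 and 9.68 and 6.76, 7.63 and 7.36 in WIK. TU female 3 passed the lowest TU male there. The gene si:ch73-288o11.5 had a WIK and an AB gap but a narrow TU one, with 10.43, 11.21 and 11.1 and 9.99, 10.75 and 10.68 in TU, 9.85, 10.85 and 7.93 and 6.01, 6.39 and 6.13 in AB, and 10.93, 11.20 and 10.84 and 8.23, 9.13 and 9.15 in WIK. In NM_001005940 the TU sexes overlapped, with 9.69, 11.28 and 6.34 and 8.55, 10.70 and 7.29 in TU, 9.34, 10.23 and 9.63 and 5.98, 8.53 and 7.33 in AB, and 12.05, 12.43 and 11.44 and 11.25, 7.62 and 7.93 in WIK. For NM_001111147, by contrast, TU females 1 and 2 were the lowest of the 18 fish, with 16.52, 16.12 and 15.67 and 12.02, 13.30 and 16.48 in TU, 16.81, 16.94 and 15.37 and 14.41, 13.82 and 14.14 in AB, and 16.70, 16.84 and 16.17 and 13.34, 14.39 and 14.84 in WIK.

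TU male 2 was the highest of the 18 fish in EH488720. EH488720 measured 11.64, 15.54 and 12.09 in TU males and 11.20, 10.39 and 10.69 in TU females, 11.85, 10.20 and 9.67 and 7.0, 8.95 and 9.73 in AB, and 13.38, 13.46 and 12.51 and 11.91, 10.82 and 11.32 in WIK. In these values, unlike the deposited ones, an AB female stood above the lowest AB male. The integrin subunit gene itgb1b.2 was the reverse, with TU male 2 the lowest of all 18 fish. It measured 10.31, 6.09 and 11.54 in TU males and 9.73, 10.10 and 11.73 in TU females, 13.07, 13.54 and 12.57 and 10.17, 11.27 and 11.29 in AB, and 12.59, 13.21 and 12.76 and 11.02, 11.13 and 12.11 in WIK. The TU difference of -1.21 turned sign without TU male 2. The only probe of itgb1b.2 was well above background on 2 of 3 TU male arrays.

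A further 4 members had TU female 3 as their highest TU fish by at least 3.49 log2 units over TU females 1 and 2 and AB male 3 as their highest AB fish. They are NM_001005403, U50379, CF550113 and si:ch211-5k11.8, the last an alpha globin by an older name in the RefSeq table. Of these, NM_001005403 measured 14.39, 15.08 and 16.97 and 13.37, 14.04 and 13.87 in AB, 11.61, 12.28 and 12.21 and 8.71, 10.65 and 10.93 in WIK, and 8.49, 12.41 and 11.15 and 8.82, 10.90 and 15.14 in TU. U50379 measured 15.19, 15.96 and 17.65 and 14.46, 14.96 and 14.78 in AB, 13.34, 13.95 and 13.52 and 12.47, 13.08 and 12.94 in WIK, and 12.45, 14.73 and 13.30 and 12.77, 13.28 and 16.77 in TU. The summed level of 6 erythrocyte markers was 18.40 in TU female 3 and 16 in AB male 3, the highest of their strains, and it was 15.04 to 16 in AB males, 12.77 to 14.03 in AB females, 14.78 to 16.50 in TU males, 14.65 to 15.46 in WIK males and 14.11 to 14.52 in WIK females. The part of red cell RNA in these 4 results was not tested.

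Levels of the members were next compared between AB and WIK within a sex, a contrast the rule did not use directly. The rule required groups that do not overlap between sexes and so favoured members with little spread within a group, which favours calls between strains as well. The shares of members called, in either sex, are therefore not read as an excess over all accessions. In males 9 of 136 members (6.62%) passed the threshold (limma over AB, TU and WIK males), 4 higher in AB and 5 higher in WIK, against 682 of 28404 accessions (2.4%). Among the 18601 accessions with a probe well above background on at least 3 male arrays, 856 passed, 13 of them members. With each array scaled to its median no member and 152 accessions (0.535%) passed. Leaving out 1 fish called 2 to 9 members, with the lowest count without WIK male 1 and again without WIK male 2. Those fits called 244 to 749 of all accessions. The exocrine pancreas markers of AB males were lower than those of every WIK male, and the morning collection applied to AB alone, and the part of either was not tested.

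Of the 9 male calls, 2 held in all 9 fits that left out 1 male. The gene zgc:153031, to which no role is given here, measured 11.35, 10.99 and 11.22 in AB males and 8.71, 8.69 and 8.49 in WIK males, a difference of 2.56 (standard error 0.21, adjusted p = 0.00159 in limma, 0.00111 to 0.0721 over 17 alternatives). Its females showed the same order, with 8.75, 9.0 and 8.85 in AB and 6.95, 6.45 and 6.77 in WIK, and TU had 9.01, 9.43 and 9.91 in males and 7.32, 7.33 and 10.72 in females. The glutamine transporter gene slc38a3a was lower in AB, with 7.74, 7.73 and 7.51 in AB males and 9.13, 8.85 and 8.78 in WIK males, a difference of -1.26 (standard error 0.15, adjusted p = 0.0066 in limma, 0.00397 to 0.176 over the alternatives). Its TU males measured 7.34, 7.30 and 6.86 and its females 5.97, 5.99 and 5.99 in AB, 6.22, 6.20 and 7.20 in TU and 5.82, 7.13 and 5.97 in WIK.

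Higher in AB males were also etnppl, whose enzyme breaks down phosphoethanolamine, by 1.59 (standard error 0.30, adjusted p = 0.0285), ND3, a mitochondrially encoded subunit of NADH dehydrogenase, by 1.42 (0.31, adjusted p = 0.0474) and ENSDART00000109829 by 1.87 (0.41, adjusted p = 0.0461). The call of ND3 and that of ENSDART00000109829 held in 0 of the 9 fits that left out 1 male, and that of etnppl in 6. The values of etnppl were 12.97, 13.01 and 14.10 in AB males, 13.02, 12.53 and 12.83 in TU males and 11.59, 11.84 and 11.90 in WIK males, and 11.24, 11.53 and 11.57, 10.93, 11.56 and 13.92 and 9.50, 10.12 and 9.79 in the females of these strains in the same order. For ND3 the males measured 15.80, 15.68 and 16.38 in AB, 14.54, 14.83 and 14.33 in TU and 14.91, 14.83 and 13.86 in WIK, and the females 13.71, 14.05 and 14.15, 13.63, 14.07 and 14.37 and 13.36, 13.59 and 13.69. For etnppl the WIK males were the lowest male group, and for ND3 the AB males were the highest group.

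ENSDART00000109829 measured 12.99, 13.37 and 14.50 in AB males, 11.34, 11.78 and 12.30 in TU males and 11.52, 11.68 and 12.07 in WIK males, and 11.59, 11.56 and 11.86, 10.81, 10.69 and 12.53 and 9.07, 8.86 and 11.54 in the females. Lower in AB males than in WIK males were rnasel2, nqo1, si:ch1073-464p5.2 and TC379555, with AB minus WIK differences of -1.72, -1.56, -1.55 and -1.91 and limma adjusted p of 0.0287, 0.026, 0.0474 and 0.0224. In the same order, their calls held in 4, 5, 2 and 4 of the 9 fits that left out 1 male. TC379555 measured 8.71, 8.50 and 9.59 in AB males, 10.20, 9.88 and 10.81 in TU males and 10.61, 11.1 and 10.82 in WIK males, and 7.21, 7.72 and 7.61, 7.87, 8.96 and 11.74 and 8.53, 9.85 and 9.88 in the females. The TU males lay nearer to WIK than to AB males in these 4 genes and nearer to AB males in slc38a3a.

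In females 10 of 136 members (7.35%) passed the same threshold, 1 higher in AB and 9 higher in WIK, against 867 of 28404 accessions (3.05%), of which 526 were higher in AB (1.85%) and 341 higher in WIK (1.2%). Without the library labelled TU female 3, which enters the estimate of spread, 25 members passed, 20 of them higher in WIK and 5 higher in AB, against 1178 accessions (4.15%), of which 483 were higher in WIK (1.7%) and 695 higher in AB (2.45%). All 10 were among the 25. With all females kept, 16506 accessions had a probe well above background on at least 3 female arrays, and 1067 of these passed. Among them were 14 of the 133 members so kept. With each array scaled to its median no member passed, against 414 accessions (1.46%), and the median AB minus WIK difference over the members changed from -0.34 to 0.24. Leaving out 1 AB or WIK female called 4 to 10 members and 465 to 990 of all accessions. The lower AB level of members in females thus depends on the scaling.

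Of the female calls, 3 held in all 9 fits that left out 1 female, and all 3 were lower in AB. For hsd11b2, with AB females at 7.34, 7.46 and 7.45 and WIK females at 9.16, 9.97 and 10.19, the difference was -2.36 (standard error 0.32, adjusted p = 0.00738 in limma, 0.00421 to 0.434 over the alternatives). For si:ch73-288o11.5, with AB females at 6.01, 6.39 and 6.13 and WIK females at 8.23, 9.13 and 9.15, and only 1 of 3 AB female arrays well above background, the difference of the measured signals was -2.66 (standard error 0.30, adjusted p = 0.00379, 0.00201 to 0.211 over the alternatives). FJ392620 measured 8.94, 9.31 and 9.53 in AB females and 11.44, 11 and 11.29 in WIK females, a difference of -1.99 (standard error 0.21, adjusted p = 0.00298, 0.00187 to 0.231 over the alternatives). The males of FJ392620 measured 10.01, 11.05 and 10.86 in AB, 11.73, 13.64 and 11.17 in TU and 13.76, 14.06 and 12.25 in WIK, and its TU females 11.56, 11.50 and 11. Every TU female lay above every AB female for all 3.

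The other female calls lower in AB had AB minus WIK differences of -3.12 for sec14l7 (adjusted p = 0.0131 in limma), -3.18 for zgc:153921 (adjusted p = 0.0246), -2.78 for apoa1a (adjusted p = 0.0311), -2.49 for nqo1 (adjusted p = 0.0315), -1.65 for cat (adjusted p = 0.0337) and -1.39 for nme4, a nucleoside diphosphate kinase (adjusted p = 0.0237). The gene hmox1b alone was higher in AB females, by 1.81 (standard error 0.36, adjusted p = 0.0291). Of the 9 fits that left out 1 female, the call held in 7 for sec14l7 and 5 for zgc:153921. It held in 2 for apoa1a, in 3 each for nqo1 and cat, and in 4 each for nme4 and hmox1b. The gene zgc:153921 measured 8.87, 10.66 and 10.31 in AB females and 12.59, 13.78 and 13 in WIK females, with AB males at 12.21, 13.09 and 11.42 and WIK males at 15.66, 16.44 and 14.75, and TU males at 13.72, 15.73 and 13.14 and TU females at 12.66, 12.54 and 14.16. The signal of nme4 was 9.16, 9.38 and 10.03 in AB females, 10.91, 10.96 and 10.87 in WIK females and 10.26, 10.44 and 11.04 in TU females, and 11.47, 12.32 and 10.55, 12.25, 12.46 and 11.65 and 11.46, 12.26 and 11.29 in the males of those strains. In both genes the AB females were the lowest group.

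**Figure D5:**
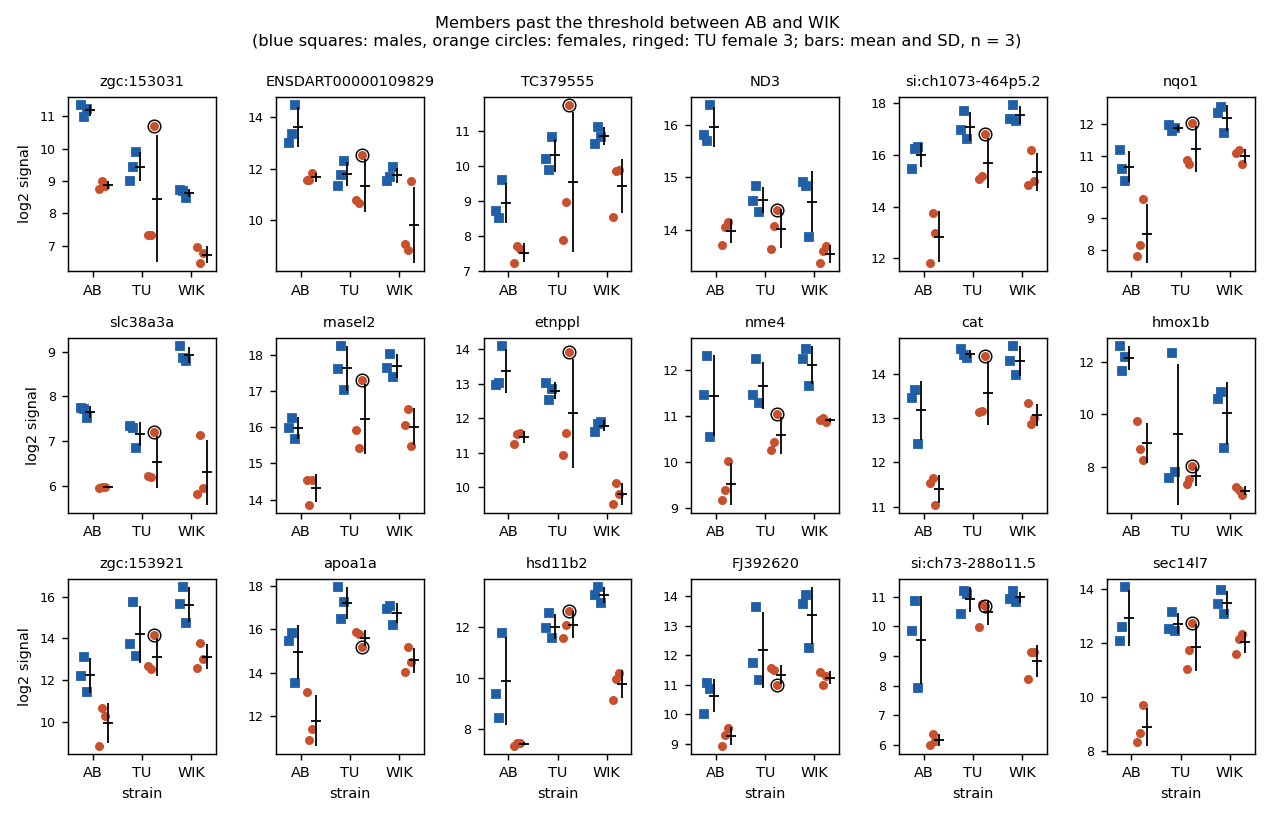
log2 signal of the 18 members that passed the threshold between AB and WIK in males, in females or in both (vertical axes, differing between panels), with males as squares, females as circles, TU female 3 ringed, and mean and SD (n = 3) beside each group. In slc38a3a the WIK males (8.78 to 9.13) lie above all other fish, and in hsd11b2 the AB females (7.34 to 7.46) lie below all other fish.

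Within scan day 1, the median AB minus WIK difference over the members was -0.25 in males and -0.39 in females, and within scan day 2 it was 0.04 and -0.34, each from 1 pair of fish. The third pair was scanned on different days. With scan day as a block 7 members passed in males, against 317 of 28404 accessions, and 12 in females, against 930. Of these members, 5 and 7 were among those called above.

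Lists of liver functions put the members beside the other genes of each task. Members made up 6 of the 30 accessions of amino acid and glyoxylate metabolism, 6 of 19 of glucose metabolism, 5 of 36 of lipid synthesis and transport, 4 of 18 of redox and heme, 5 of 18 of complement, chemokines and acute phase, 2 of 11 of steroid and thyroid hormone conversion, 1 of 29 of sex and growth hormone signalling, and 0 of 10 of purine breakdown. On the whole array members were 136 of 28404 accessions. The lists were chosen with earlier results of these data known, so the shares are a description only. In TU the limma fit called 0 accessions of these lists, and without TU female 3 it called 2, 1, 1, 2 and 1 as higher in males in the first 5 lists (0.144% of all accessions) and 1 as lower in males in the list of sex and growth hormone signalling (0.465% of all accessions). The median TU difference of the accessions in the list that are not members was 0.51, 0.29, 0.47, 0.51, 0.66, -0.01, -0.15 and 0.01 in that order of lists, against -0.01 over all accessions. Of the yolk and egg envelope list 0 of 17 accessions were members and 11 met the mirrored rule, which 0.602% of all accessions met.

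The several probes of a member did not always tell the same story. Of the 61 members with more than 1 probe, 27 had a difference of at least 1 in both AB and WIK on every probe, and 3 had none with that on its own. In TU the probes of 4 members differed in sign. Of the 90 members placed in the RefSeq gene table, 13 lay within 3 genes of another member, among them apoeb with si:dkey-7f3.14, c3a.1 with c3a.6, and chia.5 with chia.6.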

How the data were processed

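Liver RNA of 18 zebrafish was hybridised to 18 Agilent 1-colour (Cy3) arrays. The authors deposited scanner files with spot intensity values (median signal, median local background and a background-subtracted signal, per the file headers from Feature Extraction), and log2 values of the same arrays, background-subtracted, normalized across arrays and averaged over probes in limma (version not given in the sources used here). The deposited log2 table chose the members and served as an alternative. The gene lists, role groups and members were chosen with earlier results of these data known.

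For all other values, median spot intensity was background-corrected with normexp (offset 50), since mean signals were not used here, and quantile normalized over the 18 arrays. Outlier spots and 1417 control spots were left out, and 43603 probes were averaged to 28404 accessions. Tests used limma 3.58.1 in R 4.3.3 (lmFit and eBayes), with Benjamini-Hochberg adjustment over all accessions and a call required both an adjusted p no greater than 0.05 and a 2-fold difference. TU males and females were fitted by themselves, and AB was compared with WIK in a fit of the 3 strains of that sex. The fits were run on simulated normal data with added differences, to check that the estimates recovered them. That check held no outlying fish such as TU female 3, so it gives no support to the counts of calls. Nothing in the labels says more than that each sample is a separate fish, and p-values measure the spread between these samples, whose number limits the precision. Symbols came from RefSeq gene tables (GRCz12tu, names and gene order only) and the study's gene lists.

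Members named with values in each fish were the 12 with the largest mean of the AB and WIK differences, up to 4 of each of 9 function lists, the 5 highest and 5 lowest TU differences, and every member called in a test. The 3 accessions on each side of the rule's limit were named with their deposited difference. Other members named, among them those called without TU female 3 and the 4 that peaked in AB male 3 and TU female 3, were chosen after their values were seen. Alternatives were the deposited table, the processed signal at each array's 75th percentile, offset 16, a filter on dim accessions, a 4-fold limit, replicate blocks and leaving out each fish. Scan day and slide as blocks, median scaling and leaving out TU fish between AB and WIK were added after seeing the data. Figures were drawn with matplotlib 3.10.9.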

Additional observations from a re-analysis of the deposited data

Results flagged for a closer look

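For serpina10b every TU male lay below every TU female, while every male of AB and of WIK lay above every female of its strain. The TU male minus female difference was -2.29, against 2.60 in AB and 1.42 in WIK. The difference between strains was not tested. With 3 fish in each group, single outlying fish were not flagged in this section. TU female 3 and TU male 2 are described above, and fits left out each fish in turn.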

How the results depend on the processing

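The count of members called between the sexes of TU was 0, and 9 without TU female 3, so leaving out 1 fish gave 0 to 9. Over all accessions these counts were 0, 173 and 0 to 173. Between AB and WIK males 9 members were called, 1 at a 4-fold limit, 0 with median scaling, and 2 to 9 with 1 fish left out. Of all accessions the 4-fold limit called 196, and leaving out 1 fish called 244 to 749. Between AB and WIK females 10 were called, 6 at a 4-fold limit, 0 with median scaling, and 4 to 25 with 1 fish left out, the highest count being without TU female 3. Over all accessions these counts were 867, 203, 414 and 465 to 1178. The accessions called between AB and WIK males numbered 682, against 152 with median scaling, 317 with scan day as a block and 1257 with the processed signal at the 75th percentile. That last scaling moved the median difference of all accessions to -0.467 in TU, where the member median was 0.543, to -0.175 between AB and WIK males and to -0.682 between females. The median WIK difference of 1.42 was 2.17 with median scaling, and 13 members had a difference of at least 2 in both strains. TU female 1 lay nearer to the male mean for 13 members with median scaling and 38 at the 75th percentile, and TU female 2 for 9 and 35. At the 75th percentile TU male 1 did so for 69 and TU male 3 for 63 of 136. The cause was not tested.

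The sign of the TU difference turned for 5 named members at the 75th percentile (NM_001005940, hgd, fbp1b, fga and fgb), for 4 with median scaling (hsd11b2, agxtb, cetp and U50379), for 4 without TU female 3 (hsd11b2, NM_001005940, U50379 and NM_001005403) and for 2 with the deposited table (grik1a and agxtb).

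Same-numbered fish of a strain shared a slide and scan. Their deviations from group means correlated at 0.0507, -0.0983 and 0.322 in TU, 0.231, 0.0171 and -0.0816 in AB, and 0.172, 0.135 and 0.1 in WIK. Between same-numbered AB and WIK fish the values were 0.134, 0.0638 and -0.0196 in males and 0.207, -0.00234 and 0.144 in females. The numbers were not taken as pairs. With the replicate number as a block 0 members were called in TU, 11 between AB and WIK males and 10 between females. The same fits called 0, 599 and 1012 of all accessions.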
